A study of Mus musculus with 2 samples.

Results

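ES-E14 is a mouse embryonic stem cell line of strain 129/Ola, from a male embryo. Total RNA from untreated cells of this line was sequenced in 2 libraries of 1 group, labelled biological replicates 1 and 2. The labels name 1 source sample for both and give no treatment, genotype change or second condition, so the spread between the libraries may be technical. The genes described here were chosen by symbol: 10 genes of p53 and the BCL2 family, all of them found among the 43346 genes of the tables. They are Trp53 and its regulator Mdm2, the pro-survival genes Bcl2, Bcl2l1 and Mcl1, the effector genes Bax and Bak1, and the BH3-only genes Bbc3, Bcl2l11 and Pmaip1. With 1 group the questions were how abundant each gene was, how pro-death members stood to pro-survival members, which transcripts made up each gene, and how far the libraries differed.

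Cells die by the mitochondrial route of apoptosis when BAX and BAK make pores in the outer mitochondrial membrane and cytochrome c leaves to activate caspases. Pro-survival proteins of the BCL2 family hold BAX and BAK in check, and BH3-only proteins bind those guardians and release the brake. The transcription factor p53 switches on several of these genes, and the ubiquitin ligase MDM2, itself a p53 target, marks p53 for breakdown. Pluripotent cells are known for their readiness to undergo apoptosis after DNA damage. RNA levels do not show protein levels or protein activity, which for p53 and MCL1 depend strongly on protein turnover.

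Depth was 43163300 expected counts on genes in replicate 1 and 45573500 in replicate 2. An expected count is an estimated number of reads, fractional where a read could come from several transcripts. Levels are in TPM, a share of all transcripts in a library after correction for length, so levels of different genes can be set side by side. Paired values are in the order replicate 1, replicate 2. The stem cell label was checked with Pou5f1, Sox2, Nanog, Zfp42, Esrrb and Klf4, of which 6 of 6 stood at 1 TPM or more in both libraries, summing to 342 and 430 TPM. The 10 feeder fibroblast markers summed to 49.1 and 166 TPM, with 8 of 10 higher in replicate 2 and Lum at 0 counts in both. The TPM of those 8 was 2.26 times (Pdgfrb) to 15.4 times (Col5a2) higher there. Acta2 made up most of each sum, at 33.04 and 100.23 TPM. Thy1 was lower in replicate 2, at 2.27 and 1.62 TPM. The 5 endoderm markers summed to 1.28 and 6.55 TPM, with 5 of 5 higher in replicate 2, by 2.84 times (Gata4) to 17.5 times (Foxa2, from 3 and 50 counts). The 5 blood markers summed to 6.74 and 11.1 TPM, with Ighm at 0.26 and 5.27 TPM and Cd68 at 6.14 and 5.3 TPM. In bulk RNA, fewer cells of a type and less RNA per cell cannot be told apart, and the part of these cell types in the values below was not tested.

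Of the 10 genes, 9 stood at 1 TPM or more in both libraries, against 46.3% of all 21474 protein-coding genes. The exception was Bcl2. Bax and Mcl1 led, followed by Mdm2 and Trp53. Between each of these neighbours, and between Trp53 and Bak1, every library of the higher gene stood above every library of the lower one. Bak1, Bcl2l1, Bbc3 and Bcl2l11 formed a middle group. Within it both libraries of Bak1 stood above both of Bbc3 and of Bcl2l11, while Bcl2l1 overlapped each of the others and Bbc3 overlapped Bcl2l11. Pmaip1 stood below that group in both libraries and Bcl2 below Pmaip1.

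**Figure D1:**
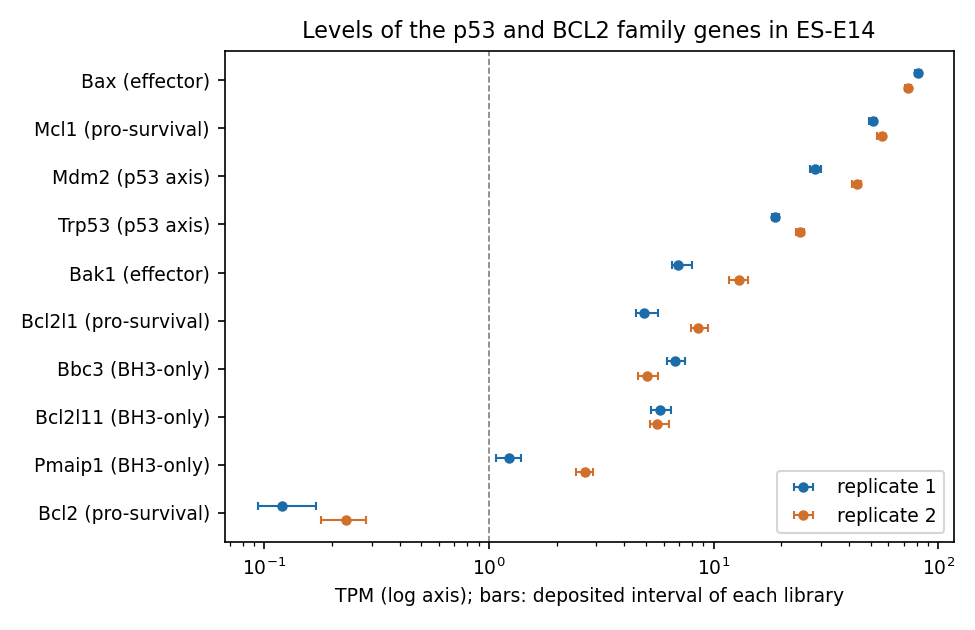
TPM of the 10 genes on a log axis, 1 point for each library, with the interval the authors deposited for that library as a bar; the dashed line marks 1 TPM. Bax stands highest at 81.32 and 73.48 TPM, and Bcl2 is the only gene left of the line, at 0.12 and 0.23 TPM.

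Trp53 (ENSMUSG00000059552; chromosome 11, 69580359 to 69591873, GRCm38) encodes p53. Its TPM was 18.83 in replicate 1 and 24.27 in replicate 2, from 2656 and 3060 expected counts. Its mean of 21.5 ± 3.85 TPM (SD, n = 2) put it at percentile 92.0 and 92.7 of protein-coding genes.

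Mdm2 (ENSMUSG00000020184; chromosome 10, 117688875 to 117710758) stood at 28.3 and 43.46 TPM, from 4053 and 6486 expected counts, with a mean of 35.9 ± 10.7 TPM (SD, n = 2). Over all transcripts of each gene, Mdm2 exceeded Trp53 by 1.5 times in replicate 1 and 1.79 times in replicate 2. That order rested on TPM assigned to models not annotated as protein-coding, many of them short. On models annotated as protein-coding, Mdm2 stood at 12.4 and 22.96 TPM and Trp53 at 16.24 and 22.44 TPM, so Mdm2 was the lower gene in replicate 1 and the higher by a small margin in replicate 2.

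Among the guardians of the mitochondrial membrane, Mcl1 (ENSMUSG00000038612; chromosome 3, 95658788 to 95663176), which encodes a short-lived pro-survival protein, was the most abundant. It stood at 51.42 and 55.9 TPM, from 10449 and 11794 expected counts, with a mean of 53.7 ± 3.17 TPM (SD, n = 2). It ranked at percentile 97.4 and 97.2 of protein-coding genes. Bcl2l1 (ENSMUSG00000007659; chromosome 2, 152780668 to 152831728), the gene of BCL-XL, stood at 4.91 and 8.47 TPM, from 707 and 1212 expected counts. The libraries differed for Bcl2l1 by 1.73 times, with replicate 2 higher. Bcl2 (ENSMUSG00000057329; chromosome 1, 106538178 to 106714274), after which the family is named, stood at 0.12 and 0.23 TPM. Only 55 and 92 expected counts lay behind these values, with exact 95% Poisson intervals of 41.4 to 71.6 and 74.2 to 113 counts, which cover counting error only. Of the summed TPM of these 3 genes, Mcl1 made up 91.1% in replicate 1 and 86.5% in replicate 2.

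Of the effectors, Bax (ENSMUSG00000003873; chromosome 7, 45461697 to 45466898) stood at 81.32 and 73.48 TPM, from 4503 and 3860 expected counts, with a mean of 77.4 ± 5.54 TPM (SD, n = 2). It was the highest of the 10 genes in both libraries, at percentile 98.5 and 97.9. Bak1 (ENSMUSG00000057789; chromosome 17, 27019810 to 27029009) stood at 6.95 and 12.9 TPM, from 1042 and 1674 expected counts. Over all transcripts of each gene, Bax thus exceeded its partner effector 11.7 times in replicate 1 and 5.7 times in replicate 2. On models annotated as protein-coding Bak1 stood at 2.67 and 4.52 TPM, so there the gap to Bax was wider. The exons of Bak1 share 437 bases with Ggnbp1 on the opposite strand, a gene at 6.39 and 4.66 TPM. The sources used here do not say whether reads were counted by strand, so the level of Bak1 is uncertain to that extent. In the M21 annotation Bax shares 192 exon bases with the gene model Gm45808 on the same strand, which the tables do not list.

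The BH3-only genes were low beside Bax and Mcl1, but above the middle of all protein-coding genes, silent ones included. Only 46.3% of all protein-coding genes stood at 1 TPM or more in both libraries, and Pmaip1 was close to that limit in replicate 1. Bbc3 ranked at percentile 79.3 and 71.7 of all protein-coding genes, Bcl2l11 at 76.8 and 73.5, and Pmaip1 at 54.8 and 61.9. Bbc3 (ENSMUSG00000002083; chromosome 7, 16308393 to 16318205), which encodes PUMA, stood at 6.73 and 5.04 TPM from 753 and 561 expected counts. Bcl2l11 (ENSMUSG00000027381; chromosome 2, 128126038 to 128162547), the gene of BIM, was the closest between libraries at 5.74 and 5.58 TPM. Pmaip1 (ENSMUSG00000024521; chromosome 18, 66458533 to 66465565), which encodes NOXA, a partner of MCL1, stood at 1.23 and 2.68 TPM from 238 and 494 expected counts. Bbc3 stood lower in replicate 2 while Pmaip1 stood higher there, so these p53 targets did not share a direction.

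Summed by role, pro-death members stood above pro-survival members in both libraries. The 5 pro-death genes reached 102 and 99.68 TPM, a mean of 101 ± 1.62 TPM (SD, n = 2). The 3 pro-survival genes reached 56.45 and 64.6 TPM, a mean of 60.5 ± 5.76 TPM (SD, n = 2). The ratio was 1.81 in replicate 1 and 1.54 in replicate 2, or 0.74 ± 0.16 on the log2 scale (SD, n = 2). Bax alone made up 79.7% and 73.7% of the pro-death sum, and the 3 BH3-only genes together 13.7 and 13.3 TPM. Pro-survival transcripts therefore outnumbered BH3-only transcripts 4.12 and 4.86 times, while effectors outnumbered pro-survival transcripts 1.56 and 1.34 times. With Bax and Mcl1 left out, a choice made after their values were seen, pro-death members exceeded pro-survival members 4.11 and 3.01 times.

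The order of the sums depended on the correction for length. Bax has a short transcript with an effective length of 712.8 bases in replicate 1, against 2615.96 for Mcl1. On uncorrected expected counts pro-survival members stood higher, with a log2 ratio of -0.63. On models annotated as protein-coding pro-death members stayed higher, with log2 ratios of 0.75 in replicate 1 and 0.47 in replicate 2. The median pro-death member and the median pro-survival member changed order between libraries, with a log2 ratio of 0.45 in replicate 1 and -0.6 in replicate 2. No p-value is given, since an exact two-sided sign-flip test of the log2 ratio over 2 libraries cannot go below p = 0.5.

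**Figure D2:**
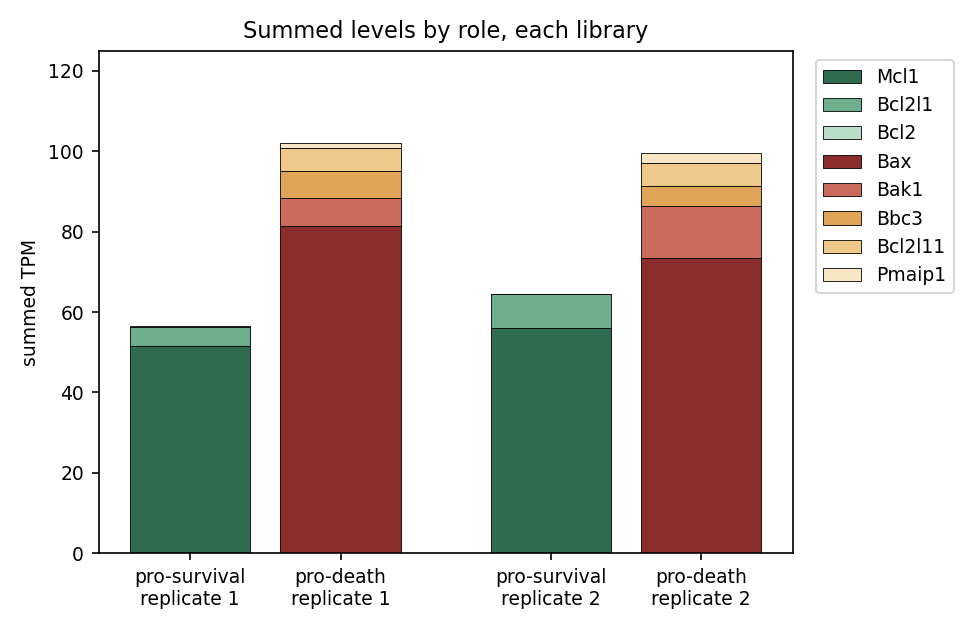
Summed TPM of the pro-survival and pro-death genes in each library, stacked by gene. The pro-death bars reach 102 and 99.68 TPM, most of it Bax, and the pro-survival bars 56.45 and 64.6 TPM, most of it Mcl1.

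The wider BCL2 family was covered by lists of 5 further pro-survival and 6 further pro-death genes. Of the pro-survival genes, 1 of 5 stood at 1 TPM or more in both libraries. This was Bcl2l2, which encodes the guardian BCL-W, at 1.47 and 1.42 TPM. Bcl2l10 stood at 0.21 and 0.17 TPM, and the near-identical copies Bcl2a1a, Bcl2a1b and Bcl2a1d, whose single values are uncertain, at 0.2 TPM or less in every library. Of the pro-death genes, 4 of 6 stood at 1 TPM or more in both libraries. Bok, a relative of BAX and BAK, stood at 5.29 and 5.04 TPM. The BH3-only gene Bid, whose product caspase-8 cleaves, stood at 5.38 and 5.04 TPM. Bad stood at 2.4 and 3.81 TPM and Bmf at 2.76 and 2.42 TPM. Bik stood at 0.82 and 0.55 TPM and Hrk at 0.13 and 0.08 TPM.

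The transcript tables list 45 models for the 10 genes, of which 44 matched the M21 annotation by identifier and 38 of those had the same length. Bax and Pmaip1 have 1 model each in the tables, so their full output is assigned to it. Over the other 8 genes, the percent of TPM on models annotated as protein-coding ranged from 36.7 ± 2.31% for Bak1 to 100% for Bcl2, Bcl2l1 and Mcl1 (SD, n = 2). Mdm2 was the next lowest at 48.3 ± 6.35%. These percents are the authors' estimates from short reads that often fit several models.

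**Figure D3:**
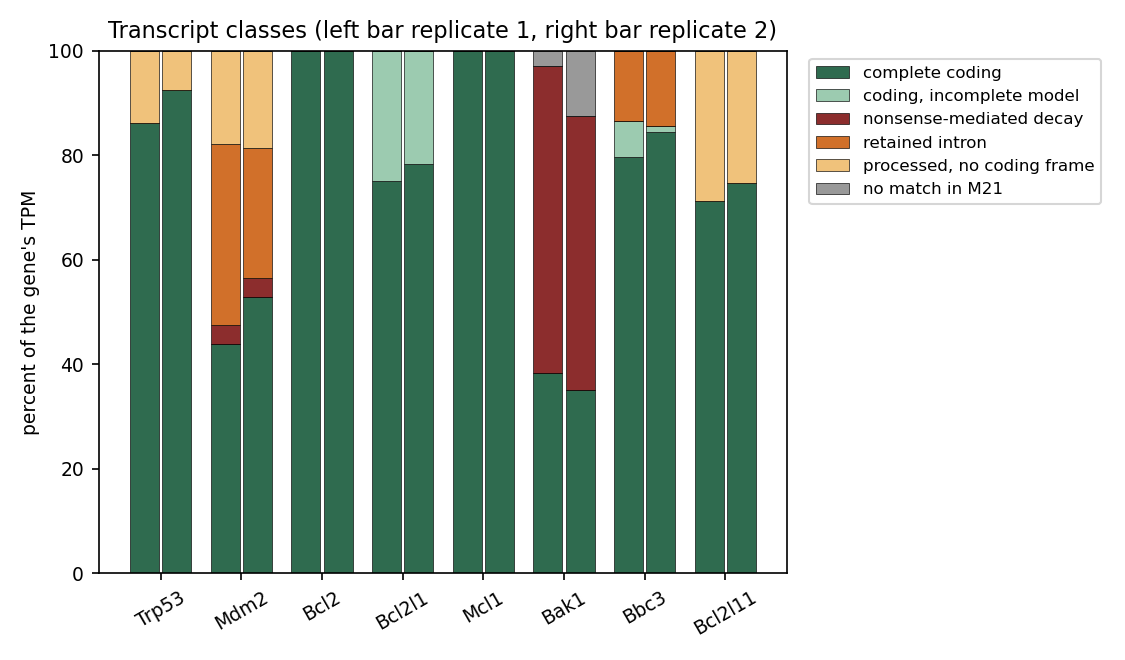
Percent of each gene's TPM by class of transcript model, as the authors deposited it, for the 8 genes with several models; the left bar of each pair is replicate 1 and the right bar replicate 2. Bak1 and Mdm2 hold the least complete coding output, with 38.4% and 35.1% for Bak1 and 43.8% and 52.8% for Mdm2.

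The stretches below tell Bak1-201 from Bak1-202, Trp53-202 from Trp53-203, Mcl1-201 from Mcl1-202, and Bcl2l11-205 from Bcl2l11-203, a minor model. They are read from the GENCODE M21 transcripts on GRCm38, which is the C57BL/6J genome and not that of 129/Ola, and run 5′ to 3′ on the strand of the gene. Capitals mark bases present in one model and absent from the other, and lower case the 15 coding bases on a side.
Bak1-201, chr17:27021663-27021682, minus strand: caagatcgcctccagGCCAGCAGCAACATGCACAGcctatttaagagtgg
Trp53-202, chr11:69591254-69591305, plus strand: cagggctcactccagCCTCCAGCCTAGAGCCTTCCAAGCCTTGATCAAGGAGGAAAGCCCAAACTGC
Mcl1-201, chr3:95658909-95659046, plus strand: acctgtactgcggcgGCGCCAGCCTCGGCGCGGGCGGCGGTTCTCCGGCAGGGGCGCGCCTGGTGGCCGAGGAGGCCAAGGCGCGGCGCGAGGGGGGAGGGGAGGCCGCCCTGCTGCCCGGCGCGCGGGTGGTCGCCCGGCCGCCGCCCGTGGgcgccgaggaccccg
Bcl2l11-205, chr2:128128757-128128924, plus strand: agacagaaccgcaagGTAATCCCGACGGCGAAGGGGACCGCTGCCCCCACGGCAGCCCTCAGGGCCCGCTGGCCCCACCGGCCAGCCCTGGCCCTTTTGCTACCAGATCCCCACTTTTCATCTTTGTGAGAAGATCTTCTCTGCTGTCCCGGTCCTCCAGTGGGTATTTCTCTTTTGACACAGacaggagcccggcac

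Bak1 output was led by a model that does not encode the full protein. Bak1-201 carries an extra exon of 20 bases, shown above, which is not a whole number of codons. Its coding frame ends after 151 codons, against 209 in Bak1-202, and it is annotated as a target of nonsense-mediated decay, the pathway that degrades mRNAs with early stop codons. Bak1-201 took 58.64% and 52.46% of Bak1 output, from 575.61 and 909.09 expected counts. Bak1-202, which encodes full-length BAK, took 38.37% and 34.45%, or 2.67 and 4.44 TPM. The models also differ at the 5′ end, where the first exon of Bak1-202 has 431 more bases, so the estimate does not rest on the small exon alone. A model with no match in M21 took 3.0% and 12.44%, from 4.2 and 30.47 expected counts.

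Trp53 output was mostly coding, with 86.2% and 92.5% on coding models. Models with the regular end, Trp53-201 and Trp53-203, together took 64.8% and 70.7%. Trp53-202 uses an earlier splice site and adds 96 bases ahead of the last exon, 52 of them coding. It encodes a p53 of 378 residues with another C-terminal end, beside 387 in Trp53-201 and 390 in Trp53-203. It took 21.42% and 21.76%, the closest agreement between libraries among the transcripts of Trp53 above 10%. The intron-holding, noncoding Trp53-205 took 13.18% and 6.38%. The split between Trp53-201 and Trp53-203 is not resolved, since their posterior mean shares were 42.75% and 25.2% for Trp53-201 against deposited shares of 7.46% and 10.49%, while the sum of both stayed at 64.3% and 69.8%.

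Mdm2 output was spread over 9 models. Mdm2-201, which encodes the full protein of 489 residues, took 37.99% and 50.61%, from 2446.8 and 4767.16 expected counts. Its TPM of 10.75 and 22.0 accounts for most of the difference of the gene between libraries. The 3 models with a retained intron took 34.6% and 25.0%, led by Mdm2-204 at 13.69% and 9.92% and Mdm2-208 at 11.95% and 8.24%. Noncoding Mdm2-207 took 16.62% and 10.2%. Together with Mdm2-206 and Mdm2-209 it starts at the second exon, and these 3 models took 20.3% and 21.5%. Many noncoding Mdm2 models are short, and by expected counts, not corrected for length, coding models held 73.3% on average.

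Mcl1 output fell on 2 models. Mcl1-201, which encodes the protein of 331 residues, took 72.87% and 81.86%, and Mcl1-202 took 27.13% and 18.14%, from 760.65 and 524.47 expected counts. Mcl1-202 lacks the 138 bases printed in capitals, or 46 codons, and encodes 285 residues. The missing stretch is 85.5% G and C. It begins with GC and ends with GG in place of the GT and AG that bound most introns, and its first 5 bases, GCGCC, occur again directly after it. Mcl1-202 holds the coding part only, leaving out 2353 further bases at the end of Mcl1-201, so reads outside the missing stretch bear on the estimate as well. Neither model is the known short form that skips the middle exon.

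Bcl2l11 encodes BIM proteins of several lengths by splicing. Bcl2l11-205, which keeps the 168 bases shown above and encodes the extra-long form of 196 residues, took 40.43% and 46.23%, from 880.07 and 931.99 expected counts. Bcl2l11-203, in which those bases are spliced out and 140 residues remain, took 2.96% and 5.4%. The stretch begins with GT and ends with AG and holds 56 whole codons. Bcl2l11-205 also has 1319 more noncoding bases at its 3′ end. The shares of Bcl2l11-205 and Bcl2l11-203 therefore do not rest on that stretch alone. The short form of 110 residues took 10.8% and 3.69%, on no more than 24.75 expected counts, so its difference between libraries rests on few reads. Bcl2l11-202, with another end and 91 residues, took 17.14% and 19.34%. Noncoding models took 28.7% and 25.3%, led by Bcl2l11-208 at 12.04% and 15.13%, with Bcl2l11-206 at 11.89% and 4.98%.

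Bcl2l1 output was led by BCL-XL. The 2 models that encode its 233 residues took 58.8% and 67.0%. They differ in the first exon: Bcl2l1-201 took 53.88% and 43.11%, and Bcl2l1-202 4.93% and 23.86%. Models of 209 residues, which read on into the intron after the main coding exon, took 16.2% and 11.3%, with Bcl2l1-205 at 15.15% and 6.75%. Incomplete coding models took 25.0% and 21.7%, with Bcl2l1-204 at 14.12% and 7.59%.

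Bbc3-201, the full model of PUMA with 193 residues, took 79.61% and 84.36%, and the retained-intron model Bbc3-203 took 13.51% and 14.41%, from 51.2 and 38.79 expected counts. For Bcl2, Bcl2-201 took 69.85% and 65.24% and Bcl2-202 30.15% and 34.76%, with no more than 76.47 expected counts behind any of these.

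Averaged over the libraries, 9 of the 10 genes reached 1 TPM, and 0 of these 9 differed 2-fold, set as a difference of 1 in log2(TPM + 1). Of all 11436 genes with that mean level, 3.24% were higher in replicate 2 by this limit and 0.866% lower, or 370 and 99 genes. With edgeR TMM scaling of the counts these numbers were 348 and 472. The largest differences were those of Bak1 at 0.81, Pmaip1 at 0.72, Bcl2l1 at 0.68 and Mdm2 at 0.60, all higher in replicate 2. Bbc3 at -0.36 and Bax at -0.14 stood lower there. The log2(TPM + 1) scale understates differences of low genes, and with a pseudocount of 0.1 Pmaip1 passed the limit, its TPM being 2.18 times higher in replicate 2.

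The median difference over the 10 genes was 0.24, against 0.23 over protein-coding genes whose mean reached 1 TPM. On TMM-scaled counts these medians were 0.21 and 0.02. By TMM 5 of the 10 stood higher in replicate 2 and 5 lower. Trp53 was 0.35 higher in log2(TPM + 1) but -0.03 by TMM, and Mcl1 was 0.12 higher but -0.06 by TMM, so neither has a direction that holds on both scales. Pmaip1 (0.82), Bcl2l1 (0.55), Bcl2 (0.50), Mdm2 (0.45) and Bak1 (0.45) stayed higher in replicate 2 by TMM, and Bbc3 (-0.65), Bax (-0.45) and Bcl2l11 (-0.16) lower. The authors' intervals of the libraries did not overlap for 9 of the 10 genes, with 7 higher and 2 lower in replicate 2, and overlapped for Bcl2l11. Of the 9 genes whose mean reached 1 TPM, 6 were higher and 2 lower by this measure, against a background of 49.5% and 13.3% of all such genes. The intervals describe the estimate within a library and leave out the variation between libraries.

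**Figure D4:**
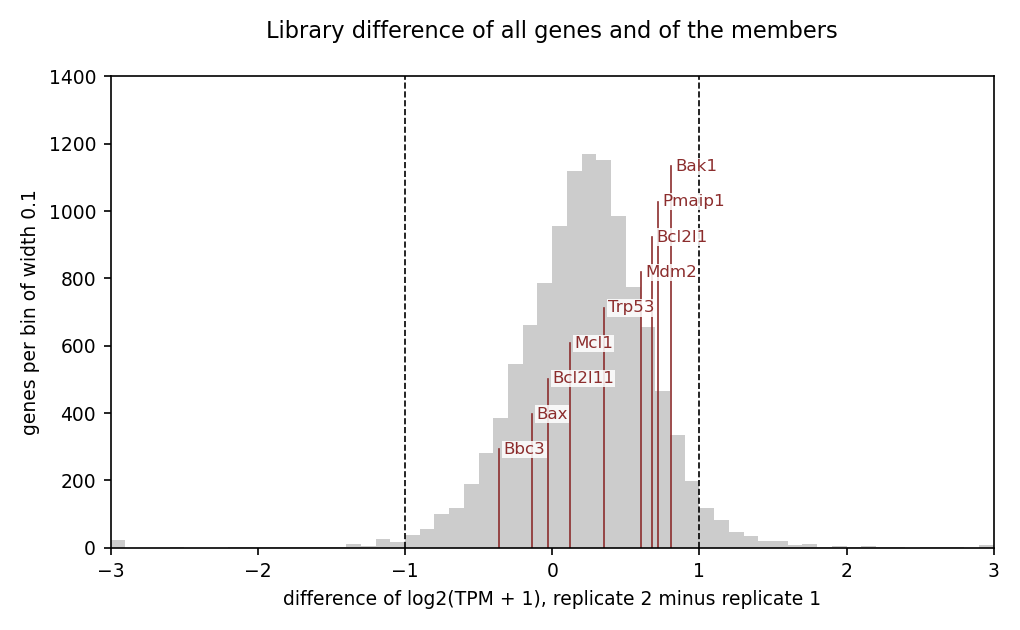
Histogram of the difference of log2(TPM + 1), replicate 2 minus replicate 1, over 11436 genes whose mean reached 1 TPM, with genes beyond the axis counted in its end bins; red lines mark the 9 members with such a mean and dashed lines a difference of 1 either way. The members run from -0.36 for Bbc3 to 0.81 for Bak1, all inside the dashed lines.

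Most genes listed for the p53 pathway around these members reached 1 TPM. Of 22 p53 relatives and regulators, 19 stood at 1 TPM or more in both libraries, with a median of 2.87 in log2(TPM + 1) against 0.9 over all protein-coding genes. At a limit of 5 TPM 13 of these 22 passed. The highest were Rpl11 (251.31 and 380.3 TPM) and Rpl5 (156.39 and 209.68 TPM), ribosomal proteins that can bind MDM2, and Usp7 (56.25 and 56.41 TPM), which removes ubiquitin from p53 and MDM2. Ribosomal protein genes have near-identical pseudogene copies, so their levels are uncertain. The p53 relative Trp63 was the lowest at 0.01 and 0.03 TPM. Mdm4, a partner of MDM2 named here after its values were seen, stood at 49.01 and 32.47 TPM, lower in replicate 2 where Mdm2 was higher.

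Cdkn2a encodes the MDM2 inhibitor ARF and the kinase inhibitor INK4A from separate first exons. It was the 1 gene of that list past the 2-fold limit in log2(TPM + 1). It stood at 5.16 and 12.3 TPM, a difference of 1.11, and of 0.93 by TMM, short of the limit. The list held 19 genes whose mean reached 1 TPM. Of all 11436 such genes, 3.24% were higher in replicate 2 by this limit, so 1 call is not read as a trait of the list. Cdkn2a-202, with the far upstream first exon, which is that of ARF, stood at 4.22 and 7.3 TPM and took 81.68% and 59.33%. Cdkn2a-201, the INK4A model, stood at 0.95 and 5.0 TPM from 51.09 and 256.54 expected counts. Of the feeder fibroblast markers, summing to 49.1 and 166 TPM, most of it Acta2, 8 of 10 stood higher in replicate 2. Their part in the difference of Cdkn2a was not tested.

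Of 23 p53 target genes, 21 stood at 1 TPM or more in both libraries, with a median of 3.07 in log2(TPM + 1). At a limit of 5 TPM 13 of these 23 passed. The highest were Ccng1, a cyclin G gene, at 38.91 and 58.27 TPM, the exonuclease gene Aen at 21.99 and 35.46 TPM, and Ei24 at 19.53 and 26.78 TPM. The death receptor gene Fas was the lowest at 0.58 and 0.73 TPM. Cdkn1a, which encodes the cell cycle inhibitor p21, was the 1 target past the 2-fold limit in log2(TPM + 1). It stood at 2.96 and 7.17 TPM, a difference of 1.04 and of 1.01 by TMM. The mean reached 1 TPM for 22 of the targets. Of all 11436 such genes, 3.24% were higher in replicate 2 by this limit, so 1 call is not read as a trait of the targets. By TMM the death receptor gene Tnfrsf10b, at 5.9 and 3.52 TPM, also passed, with a difference of -1.05, lower in replicate 2. On that scale 348 of the 11436 genes were higher by this limit and 472 lower. This call is likewise not read as a trait of the targets. Of the 23 targets 14 stood higher in replicate 2 and 9 lower, and their median difference was 0.13, beside 0.23 over protein-coding genes whose mean reached 1 TPM. Bax and Bbc3, themselves p53 targets, stood lower in replicate 2 while Cdkn1a, Mdm2 and Pmaip1 stood higher.

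**Figure D5:**
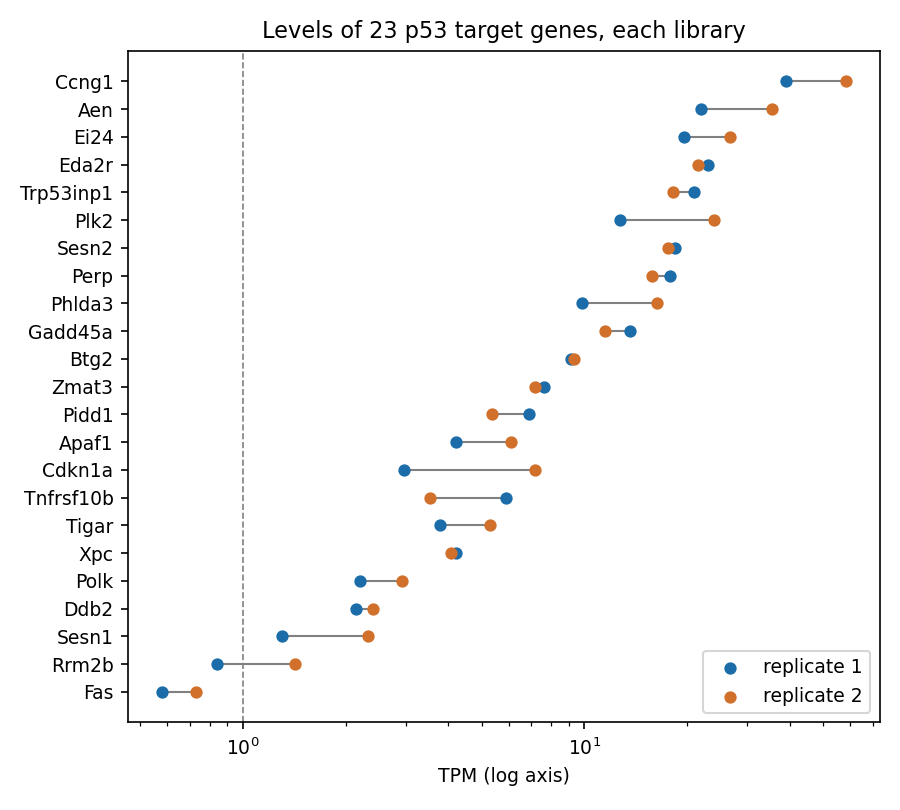
TPM of 23 p53 target genes on a log axis, 1 point for each library joined by a line; the dashed line marks 1 TPM. Ccng1 is highest at 38.91 and 58.27 TPM, Cdkn1a has the widest gap at 2.96 and 7.17 TPM, and Fas lies left of the line in both libraries.

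A further list held the caspase cascade together with proteins released from mitochondria. Of its 12 genes, 9 stood at 1 TPM or more in both libraries, against 46.3% of all protein-coding genes. The highest encode proteins released from mitochondria: Aifm1 (21.94 and 19.24 TPM), Htra2 (13.51 and 13.69 TPM) and Diablo (11.35 and 12.97 TPM). Casp8, the caspase of death receptors, was the lowest at 0.32 and 0.6 TPM. Of 6 caspase inhibitors 5 passed, led by Birc5 (24.12 and 38.48 TPM), which encodes survivin and also serves in mitosis, Birc6 (24.41 and 29.47 TPM) and Birc2 (5.27 and 7.04 TPM), with Birc3 lowest at 0.76 and 1.06 TPM. Of 10 death receptor genes 5 passed, near the 46.3% of all protein-coding genes. Their median was 1.01 in log2(TPM + 1), near the 0.9 over all protein-coding genes. The death receptor list was led by the receptor gene Tnfrsf10b (5.9 and 3.52 TPM), Cflar (2.47 and 3.77 TPM), which encodes an inhibitor of caspase-8, and Ripk1 (1.46 and 2.23 TPM). The ligand gene Tnfsf10 had 3 and 1 expected counts.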

How the data were processed

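The deposited gene and transcript tables were used as they stand. Per the deposited text files, reads were aligned to mm10 with annotation M4 and each library was quantified from its transcriptome alignments (aligner, quantifier and versions: not given in the sources used here). Per the file headers, the authors give expected counts, TPM over all rows of a table, FPKM, and a posterior mean TPM with interval bounds, which count as signal values of the authors; no source used here states the interval's level. In the deposited transcript files, a percent column splits the TPM of a gene over its models. The 26345 rows named by a number or for spike-ins were left out; they held 1 and 15 expected counts.

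Symbols, coordinates, transcript classes and coding lengths came from GENCODE M21 on GRCm38, the assembly of mm10, and 42462 of 43346 genes matched. Models may have changed since M4. The noncoding models of ribosomal RNA, Gm26917 and Gm42418, held 26.4% and 16.4% of counts, and protein-coding genes outside the mitochondrial genome 18.7% and 22.9% of TPM, so TPM scales differ between libraries.

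No p is given: over 2 libraries an exact two-sided sign-flip test has 0.5 as its smallest p, and the libraries form 1 group. SDs are over the libraries. The common coefficient of variation between libraries was 0.274 over 16428 genes (edgeR 4.0.16, rounded expected counts, TMM). Alternatives were limits of 0.5 and 5 TPM, a pseudocount of 0.1, FPKM, posterior means, the interval's lower bound, rescaling to protein-coding genes, TMM and DESeq2 1.42.0 size factors, other memberships, uncorrected counts and each library alone. Software was R 4.3.3 and Python 3.11.15 with scipy 1.17.1, matplotlib 3.10.9, pandas 2.3.3 and numpy 2.4.6. The rule for named genes took all 10 members, the 3 highest, the lowest and every gene 2-fold apart of each other list, all of the other BCL2 family, and transcripts at 10% or more or among the 2 highest. The members, lists and rules were chosen with earlier results of these data known. Protein sequences were not used here.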

Additional observations from a re-analysis of the deposited data

How the results depend on the processing

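No result has a p-value, and leaving out either library gave 0.63 and 0.85 for the log2 ratio of pro-death to pro-survival sums, against 0.74 with both. The ratio turned to -0.63 on expected counts not corrected for length, as Bax is short, and to -0.07 with the median of members in place of the sum; it was 0.92 with the other BCL2 family added and 1.81 without Bax and Mcl1, a choice made after seeing the data. The median level of the members, 8.76 TPM, was 14.8 as FPKM and 41.7 with TPM rescaled to protein-coding genes, where the unit itself changes, and 6.84 and 10.7 in single libraries. The number of members 2-fold apart went from 0 to 1, Pmaip1, with a pseudocount of 0.1. The median percent on protein-coding models went from 87.7 to 91.9 by transcript counts not corrected for length. Of 79 pathway genes 61 were detected, or 36 at a limit of 5 TPM. Detection of 9 of 10 members held under every other setting tried except the limit of 5 TPM, where it was 7. Among 81 other values of single genes and lists, 35 moved beyond the SD or by over 1.5 times. They include the level of every member as FPKM or rescaled TPM, where the unit changes. None of the 81 could change sign, being levels, counts or percents. No paired analysis was possible because the series has 1 group. Values of Bcl2 are limited by depth, at 55 and 92 expected counts.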
